A study of Mus musculus with 6 samples.

Results

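The genes described here make cholesterol or control how much of it a cell holds. They are the 29 listed symbols of the mevalonate and sterol pathway, of its transcriptional control and of sterol transport and storage, each matched to a gene of the same name in the deposited tables. All 29 were found among 24411 genes, and all 29 were among the 17110 genes that passed the filter on low counts. The list does not hold every gene of the pathway.

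Expression was measured by RNA sequencing of testes from C57BL/6 mice, a standard inbred laboratory strain. In 3 libraries the genotype is MRP5-/- and MRP9-/- (DKO below, for double knockout), and in 3 it is Wildtype. The study's design text calls the mice age matched, and their age is not given in the sources used here. MRP5 and MRP9 are membrane transporters of the ABCC family, encoded by Abcc5 and Abcc12. The labels name no other allele or treatment and do not say how the alleles were made, and the replicate numbers only name libraries.

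Libraries held 42673600 to 67131100 expected counts in DKO and 26753700 to 31746000 in Wildtype, so depth did not overlap between the groups. The mean length of the sequenced fragments did not overlap either, at 275 to 317 bases in DKO and 230 to 258 bases in Wildtype. Abcc12 transcript was lower in DKO but still counted, at 79.0 ± 5.56 CPM (counts scaled to a common library size, not divided by gene length) against 160 ± 3.93 (SD, n = 3 each; edgeR adjusted p = 0.000307). Abcc5 transcript was higher, at 16.8 ± 0.190 CPM against 11.4 ± 0.898 (SD, n = 3 each; edgeR adjusted p = 0.0225). The exons deleted are not given in the sources used here, so counts over the whole Abcc5 gene do not check the MRP5 part of the label. Germ cell markers dominated every library: the summed level of 10 elongating spermatid markers was 111107 to 129152 TPM (counts scaled for both transcript length and library size). The 8 epididymis markers summed to 9.15 to 9.75 TPM in DKO and 7.29 to 9.54 TPM in Wildtype. Of these 8, Lcn5 and Lcn8 were at 0 in all libraries, while Rnase10 and Cuzd1 were counted in every library.

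Cholesterol is built from acetyl-CoA in an early mevalonate stage that ends in farnesyl diphosphate, a squalene stage that ends in lanosterol, and a late stage that trims lanosterol to cholesterol. The genes are switched on together by SREBP transcription factors, which the escort protein SCAP carries out of the endoplasmic reticulum when sterols are low and which INSIG proteins hold back when sterols are high. In the testis cholesterol is the raw material of steroid hormones in Leydig cells, the steroid-making cells between the tubules. Germ cells also express the pathway, and CYP51 in spermatids makes a meiosis-activating sterol.

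Of the 29 genes, 4 passed an adjusted p of 0.05 between DKO and Wildtype (13.8%, against 10.8% of all tested genes). Cyp51, lanosterol demethylase, was the 1 gene called higher in DKO (3.45% of the list, against 5.75% of all tested genes). Tm7sf2, Mvd and Dhcr7 were the 3 called lower (10.3%, against 5.1% of all tested genes). The median log2 fold change, DKO over Wildtype, was -0.06 over the 29 genes and -0.0042 over all tested genes. Groups did not overlap for 12 of the 29 (41.4%, against 35.9% of all tested genes), 6 of them higher in DKO (20.7%, against 18.4%) and 6 lower (20.7%, against 17.5%). Apart from the share called lower, which rests on 3 genes and lies above the background, these shares lie near it. The list as a whole is therefore described by its single genes. All adjusted p-values are from edgeR's quasi-likelihood test over all tested genes.

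**Figure D1:**
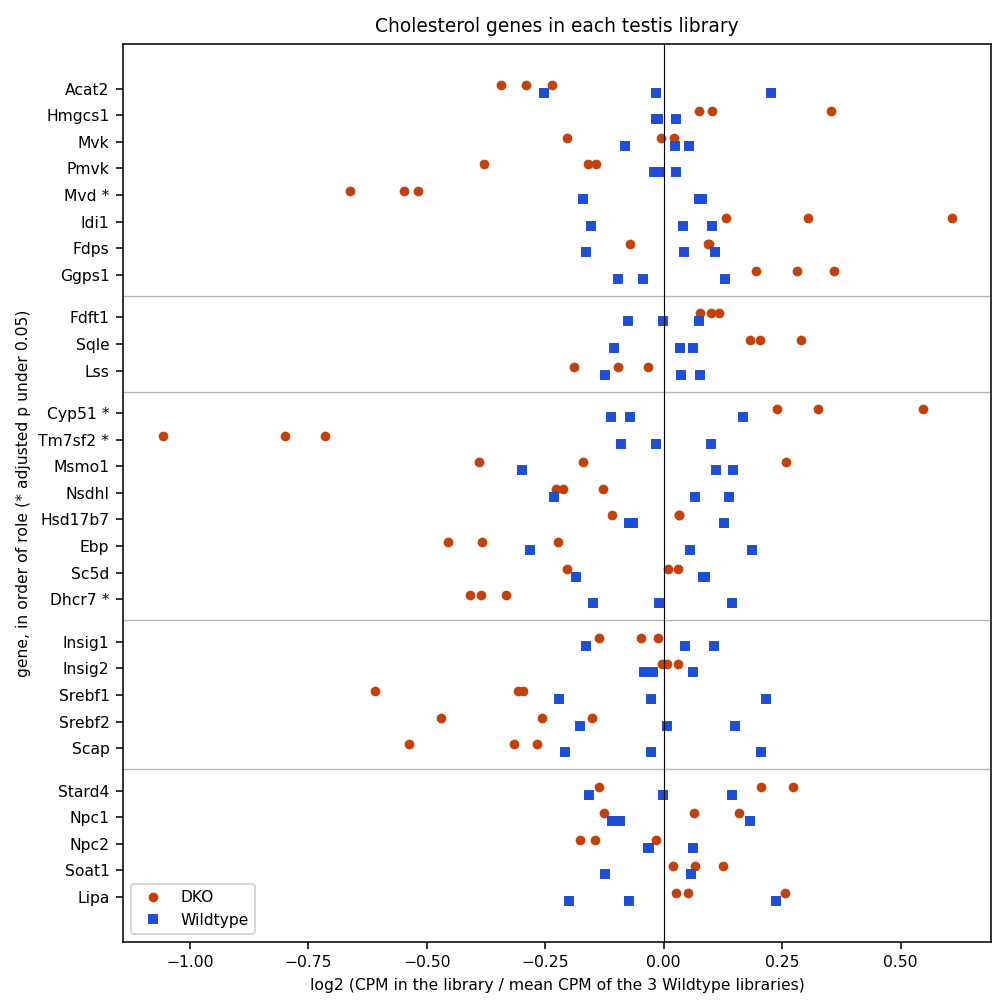
Log2 ratio of each library's CPM to the mean of the 3 Wildtype libraries (x axis) for the 29 genes (y axis), in the order mevalonate stage, squalene stage, late stage, SREBP control, and transport and storage. Circles are DKO libraries, squares are Wildtype libraries, and an asterisk marks the 4 genes with an adjusted p under 0.05; Cyp51 lies to the right in DKO and Mvd, Tm7sf2 and Dhcr7 to the left, with no overlap.

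The promoters of these 4 genes are shown because they are the members called, in opposite directions. Each line gives the 250 bases before the start in the RefSeq promoter table (GRCm38.p6, the build the submitters' processing notes call mm10), 5′ to 3′ on the gene's own strand, in the window nearest the start of the counted transcript. Capitals mark 4 motifs searched on both strands: CCAAT (the NF-Y box, ATTGG when read on the other strand), TCACNCCAC (a core of the sterol response element), TGACGTCA (the cAMP response element) and TGACG (its partial site, which the full element contains). The windows are chr5:4104698-4104947 (minus strand), chr8:122443423-122443672 (minus strand), chr19:6067851-6068100 (minus strand) and chr7:143822917-143823166 (plus strand).
Cyp51: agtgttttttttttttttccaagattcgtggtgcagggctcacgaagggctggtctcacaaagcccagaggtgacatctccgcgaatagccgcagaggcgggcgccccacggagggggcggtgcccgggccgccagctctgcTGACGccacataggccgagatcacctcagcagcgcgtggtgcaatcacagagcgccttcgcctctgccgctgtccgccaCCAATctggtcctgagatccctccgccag
Mvd: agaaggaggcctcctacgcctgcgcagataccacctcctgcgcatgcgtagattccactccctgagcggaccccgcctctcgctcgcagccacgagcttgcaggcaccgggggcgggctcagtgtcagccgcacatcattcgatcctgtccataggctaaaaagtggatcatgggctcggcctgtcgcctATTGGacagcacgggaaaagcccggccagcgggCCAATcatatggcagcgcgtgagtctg
Tm7sf2: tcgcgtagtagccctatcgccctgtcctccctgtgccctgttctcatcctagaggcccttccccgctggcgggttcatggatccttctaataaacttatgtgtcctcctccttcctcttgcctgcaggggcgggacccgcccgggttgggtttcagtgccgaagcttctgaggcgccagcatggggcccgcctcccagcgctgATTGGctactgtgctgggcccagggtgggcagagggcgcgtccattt
Dhcr7: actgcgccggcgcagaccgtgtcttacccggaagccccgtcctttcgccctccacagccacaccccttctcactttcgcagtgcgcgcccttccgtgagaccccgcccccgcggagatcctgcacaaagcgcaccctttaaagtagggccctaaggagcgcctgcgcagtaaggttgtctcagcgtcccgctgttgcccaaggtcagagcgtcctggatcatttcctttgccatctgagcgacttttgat

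Cyp51 holds 1 CCAAT box and 1 partial site (TGACG) of the cAMP response element. Mvd holds 2 CCAAT boxes and Tm7sf2 holds 1. The Dhcr7 window at the counted start holds none of the motifs, while another of its 3 listed windows, at a start farther into the gene, holds 2 CCAAT boxes. The table had 32 windows for 24 of the 29 genes. CCAAT was in 23 of the 32 windows (71.9%), against 37.4% of all 32851 windows in the table. The TGACG partial site was in 12 windows (37.5%, against 20.8%), and the TCACNCCAC core was in 1, that of Hmgcs1 (3.125%, against 1.24%). The full TGACGTCA was in 0 of the 32, against 1.79% of all windows. A match is a run of letters, not a measured binding site, and genes of both directions of change held CCAAT.

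Levels along the pathway were uneven, and the order of steps was similar in both genotypes. Levels are compared here in TPM, which is per transcript length. Fdft1, squalene synthase, stood highest of the 29 genes at 192 ± 9.79 TPM in DKO and 187 ± 1.63 TPM in Wildtype (SD, n = 3 each), at percentile 94.1 of all tested genes. Fdps, farnesyl diphosphate synthase, followed at 70.7 ± 3.41 and 69.3 ± 7.85 TPM, and Sqle, squalene epoxidase, at 70.0 ± 3.84 and 62.2 ± 1.45 TPM. In DKO the means of Fdps and Sqle lay within 1 SD of each other, and in Wildtype the Sqle mean lay within the wider spread of Fdps. Insig2 had 41.7 ± 1.06 and 43.0 ± 2.52 TPM and Idi1 had 40.5 ± 6.40 and 32.8 ± 2.10 TPM.

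Several later steps were lower. Lss, which closes squalene epoxide into lanosterol, had 4.59 ± 0.279 TPM in DKO and 5.20 ± 0.559 TPM in Wildtype. Sqle exceeded Lss 15.3 ± 1.53 times in DKO and 12.1 ± 1.47 times in Wildtype (SD, n = 3 each). In the late stage Cyp51 had 38.4 ± 3.87 TPM in DKO and 30.97 ± 2.12 TPM in Wildtype, and the other 7 enzymes had means of 1.16 to 12.7 TPM over all libraries. Hsd17b7, which reduces the sterol ketone, was lowest of the 29 at 1.13 ± 0.0971 and 1.197 ± 0.105 TPM. Summed TPM by stage overlapped between the groups in all 5 roles, for example 207, 187 and 189 in DKO and 182, 203 and 185 in Wildtype for the 8 mevalonate genes.

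**Figure D2:**
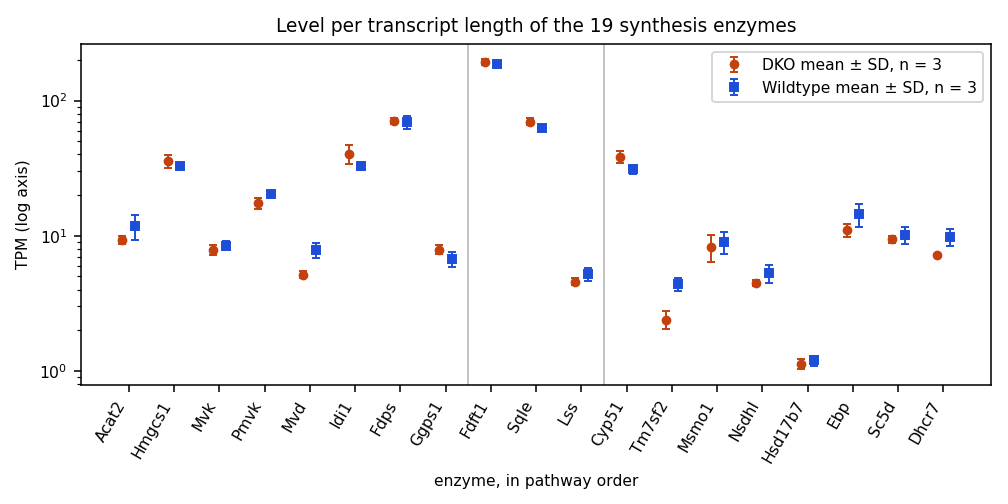
Mean TPM on a log axis (y) of the 19 synthesis enzymes in pathway order (x), with bars of 1 SD over 3 libraries; circles are DKO, squares Wildtype, and vertical lines divide the 3 stages. Fdft1 is highest and Hsd17b7 lowest in both groups, and Cyp51 stands above the enzymes that follow it.

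In the mevalonate stage 1 of 8 genes was called, and it was lower. Of all tested genes, 10.8% were called in either direction and 5.1% were called lower. Mvd, mevalonate diphosphate decarboxylase, which makes isopentenyl diphosphate, lies at chr8:122433601-122443422 on the minus strand. It had 5.02, 5.54 and 5.43 CPM in DKO replicates 1 to 3 and 7.06, 8.36 and 8.40 CPM in Wildtype replicates 1 to 3. Every DKO library was below every Wildtype library. The log2 fold change was -0.58 (SE 0.112; by edgeR, adjusted p = 0.0253), or 0.671-fold.

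The next enzyme had the opposite sign. Idi1, isopentenyl diphosphate isomerase, had 87.2, 70.7 and 62.7 CPM in DKO and 58.8, 51.4 and 61.3 CPM in Wildtype. The groups did not overlap, but the lowest DKO and the highest Wildtype library lay close together. The log2 fold change was 0.36 (SE 0.115), and missed the threshold (edgeR adjusted p = 0.0606).

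Hmgcs1, HMG-CoA synthase, had 91.6, 75.4 and 76.9 CPM in DKO and 70.8, 71.1 and 73.0 CPM in Wildtype (log2 fold change 0.18; edgeR adjusted p = 0.159). DKO replicate 1 alone was far above the others. Ggps1, which diverts farnesyl diphosphate to geranylgeranyl diphosphate for protein prenylation, did not overlap between the groups at 12.2, 10.9 and 11.5 CPM in DKO and 8.88, 10.4 and 9.21 CPM in Wildtype (log2 fold change 0.28; edgeR adjusted p = 0.0828). Ggps1 shares 257 exonic bases with Arid4b on the other strand. Pmvk, phosphomevalonate kinase, was lower without overlap, at 10.9 ± 0.966 CPM against 12.8 ± 0.217 (SD, n = 3 each; edgeR adjusted p = 0.134). The remaining 3 genes overlapped: Acat2, acetoacetyl-CoA thiolase, Mvk, mevalonate kinase, and Fdps had log2 fold changes of -0.29, -0.06 and 0.04. Acat2 and Fdft1 were the 2 members with fractional counts, in all 6 libraries, so some of their fragments were shared with other genes.

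None of the 3 genes of the squalene stage was called (against 10.8% of all tested genes). Sqle, often the slow step after the mevalonate stage, had 126, 117 and 119 CPM in DKO and 108, 96.2 and 106 CPM in Wildtype. All DKO libraries were above all Wildtype libraries (log2 fold change 0.23, SE 0.0728; by edgeR, adjusted p = 0.0629). Fdft1, at 460, 453 and 465 CPM in DKO and 452, 407 and 429 CPM in Wildtype, did not overlap either but nearly touched, with a log2 fold change of 0.10 (SE 0.0692; by edgeR, adjusted p = 0.354), and it shares 774 exonic bases with Ctsb on the other strand. Lss overlapped and had a log2 fold change of -0.11 (edgeR adjusted p = 0.434).

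In the late stage the test called 1 of 8 genes higher in DKO and 2 lower (against 5.75% and 5.1% of all tested genes). A negative fold change was found for 7 of the 8, against 8670 of all 17110 tested genes. Hsd17b7, Sc5d and Msmo1 were near 0, with log2 fold changes of -0.01, -0.06 and -0.09. Cyp51, at chr5:4081145-4104746 on the minus strand, acts on lanosterol itself. It had 124, 106 and 99.9 CPM in DKO replicates 1 to 3 and 94.97, 78.3 and 80.5 CPM in Wildtype replicates 1 to 3. The groups did not overlap, with Wildtype replicate 1 nearest to DKO. The log2 fold change was 0.38 (SE 0.0984; by edgeR, adjusted p = 0.0384), or 1.30-fold. Its exons share 166 bases with Akap9 on the opposite strand, whose own log2 fold change was 0.20 (edgeR adjusted p = 0.121). Within both groups the library with the longest fragments had the highest Cyp51, and with fragment length as a covariate its log2 fold change was -0.02 (edgeR adjusted p = 0.999). Fragment length does not overlap between the genotypes and cannot be told apart from them by design. Its part in the Cyp51 difference was not tested.

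Tm7sf2, a sterol reductase of the step after CYP51, at chr19:6062821-6068373 on the minus strand, was the member with the largest difference. It had 2.07, 1.73 and 2.19 CPM in DKO and 3.38, 3.85 and 3.55 CPM in Wildtype, from 76 to 148 counts per library. The highest DKO library was well below the lowest Wildtype library. The log2 fold change was -0.84 (SE 0.152; by edgeR, adjusted p = 0.0237), or 0.557-fold. Its exons, merged over all annotated transcripts, share 532 bases with Vps51 on the same strand. The shared bases may lie outside the 1 transcript counted, and no Tm7sf2 count was fractional. The log2 fold change of Vps51 was -0.29 (edgeR adjusted p = 0.0671). Lbr, a nuclear envelope protein with the same sterol reductase activity, had 28.9 ± 2.71 CPM in DKO and 28.1 ± 2.83 CPM in Wildtype (SD, n = 3 each; log2 fold change 0.04, edgeR adjusted p = 0.817).

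Dhcr7, at chr7:143823145-143848410 on the plus strand, reduces dehydrocholesterol to cholesterol. It had 12.7, 13.2 and 12.5 CPM in DKO and 14.99, 18.4 and 16.5 CPM in Wildtype. The DKO libraries were tightly grouped and all below Wildtype. The log2 fold change was -0.38 (SE 0.0952; by edgeR, adjusted p = 0.0363), or 0.7695-fold. In each library Cyp51 exceeded Dhcr7 per length, by 6.01, 4.999 and 4.97 times in DKO and 3.96, 2.67 and 3.05 times in Wildtype. That ratio was set up after both values were seen and is given without a test.

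The other 5 late enzymes were not called. Ebp, the sterol isomerase, had 10.4, 10.9 and 12.2 CPM in DKO and 11.7, 16.2 and 14.8 CPM in Wildtype, overlapping through Wildtype replicate 1 (log2 fold change -0.35; edgeR adjusted p = 0.0774). Msmo1, the sterol methyl oxidase, had the widest spread among the DKO libraries relative to its mean, from 7.19 to 11.3 CPM, and spanned the Wildtype range of 7.66 to 10.4 CPM. Nsdhl, Hsd17b7 and Sc5d, the desaturase, overlapped between groups, with log2 fold changes of -0.19, -0.01 and -0.06.

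**Figure D3:**
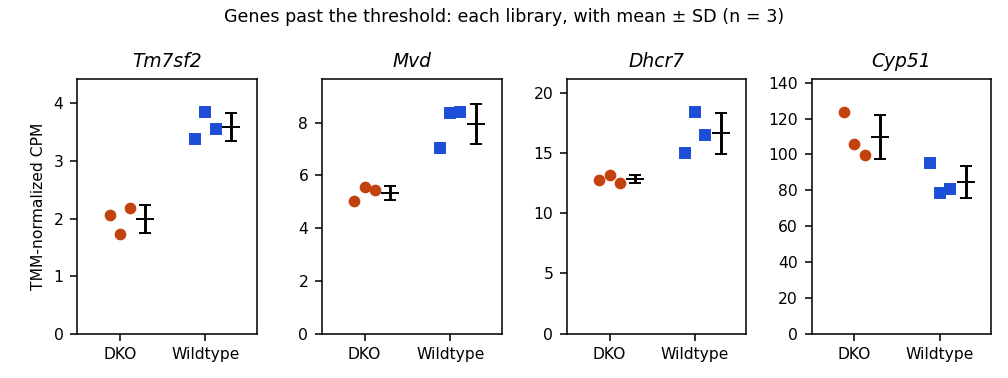
TMM-normalized CPM (y axis, from 0) of the 4 genes past the threshold in each DKO library (circles) and each Wildtype library (squares), with the mean and SD of the 3 libraries of a group in black. The groups do not overlap in any panel; Cyp51 is higher in DKO and Tm7sf2, Mvd and Dhcr7 are lower.

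None of the 5 control genes was called (against 10.8% of all tested genes). A negative fold change was found for 4 of the 5 (against 8670 of all 17110 tested genes). Scap, the sterol sensor that escorts SREBPs, came nearest, with 25.75, 30.02 and 31.04 CPM in DKO and 32.3, 43.1 and 36.7 CPM in Wildtype. The groups did not overlap, but DKO replicate 3 and Wildtype replicate 1 were close (log2 fold change -0.37, SE 0.110; by edgeR, adjusted p = 0.0514). Srebf1, the SREBP that mainly drives fatty acid genes, had 10.7, 13.2 and 13.3 CPM in DKO and 14.04, 19.01 and 16.1 CPM in Wildtype, again without overlap (log2 fold change -0.40, SE 0.1245; by edgeR, adjusted p = 0.0583). Srebf2, which mainly drives the cholesterol genes, had 25.3, 29.4 and 31.6 CPM in DKO and 31.04, 38.95 and 35.3 CPM in Wildtype. It overlapped by DKO replicate 3 and Wildtype replicate 1 (log2 fold change -0.29; edgeR adjusted p = 0.0879). The files count 1 transcript each for Srebf1 and Srebf2, so their isoforms cannot be separated.

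The INSIG genes showed little difference. Insig2 had 70.3, 71.4 and 69.8 CPM in DKO and 68.0, 68.9 and 73.0 CPM in Wildtype (log2 fold change 0.01, SE 0.0664; by edgeR, adjusted p = 0.928), the narrowest spread of these control genes in DKO relative to its mean. Insig1, itself a target of SREBPs, had 10.6 ± 0.464 CPM in DKO and 11.1 ± 1.06 CPM in Wildtype (SD, n = 3 each; log2 fold change -0.07).

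None of the 5 transport and storage genes was called (against 10.8% of all tested genes). Groups overlapped for all 5, while 35.9% of all tested genes did not overlap. Log2 fold changes ran from -0.11 for Npc2, which hands cholesterol to NPC1 in the lysosome, to 0.13 for Stard4, a soluble sterol carrier. Npc1 itself was at 0.035, Lipa, the lysosomal lipase that frees cholesterol from its esters, at 0.11, and Soat1, which makes cholesterol esters, at 0.07. Their standard errors were 0.0733 to 0.155.

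Beyond the 4 calls, adjusted p-values between 0.05 and 0.10 were found for 7 more members: Idi1, Ggps1 and Sqle (higher) and Ebp, Srebf1, Srebf2 and Scap (lower). With the calls included, 4 of the 29 members were higher and 7 lower at an adjusted p under 0.1. Of all tested genes, 12.8% were higher and 10.6% lower at that threshold, calls included. At an unadjusted p under 0.05 there were 13 of 29 members (44.8%, against 31.7% of all tested genes), 4 higher (13.8%, against 16.9%) and 9 lower (31%, against 14.8%). Wildtype replicate 1 was the lowest Wildtype library in all 9 of the lower ones, in 1 of the 4 higher ones and in 22 of all 29 members. Without it, 8 members were called lower in place of 3 (against 6.02% of all tested genes in that fit), with Acat2, Ebp, Srebf1, Srebf2 and Scap added. Leaving out DKO replicate 3 instead also added 5 called members. All tested genes called then numbered 3029, against 2037 without Wildtype replicate 1.

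The calls depended on which libraries entered the fit. Tm7sf2 and Mvd passed the threshold in 3 of the 6 fits that left out 1 library, and Cyp51 and Dhcr7 in 2 of 6, with the sign kept in all 6 for each. No member was called without DKO replicate 1, Wildtype replicate 2 or Wildtype replicate 3, where edgeR still gave 8, 8 and 9 members an unadjusted p under 0.05. Only 11, 13 and 7 of all tested genes were called in those fits. The mean fragment length of the library left out was 317, 230 and 246 bases there. Without DKO replicate 2 (289 bases) 655 genes were called. Calls over all tested genes rose without DKO replicate 3 (275 bases) or Wildtype replicate 1 (258 bases). In fragment length these were the libraries nearest the other group. The part of fragment length in this pattern was not tested. With an offset from each library's effective lengths, the same 4 members were called. That offset acts through gene length only, and does not adjust for other differences between libraries that go with fragment length. With fragment length as a covariate none was called, and 1 member kept an unadjusted p under 0.05; that covariate does not overlap between the genotypes and cannot be told apart from them by design.

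**Figure D4:**
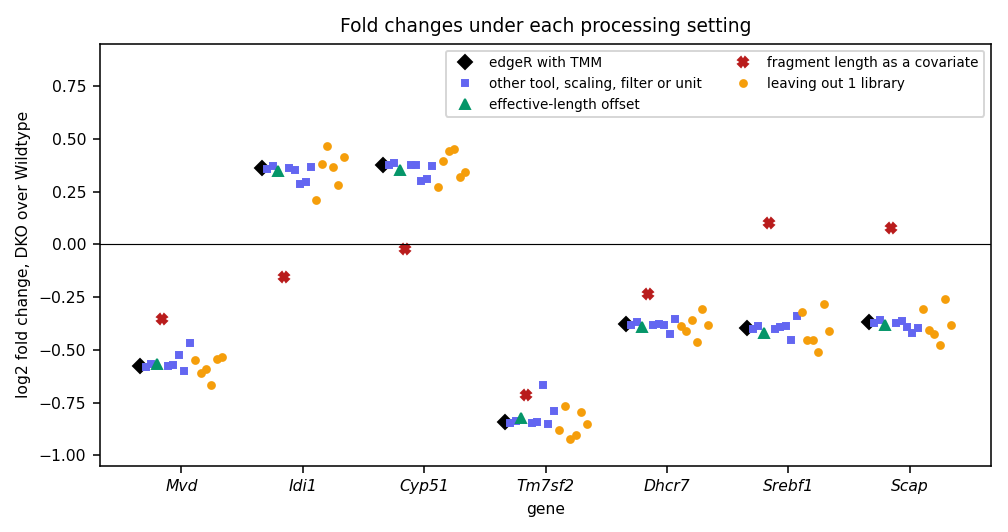
Log2 fold change, DKO over Wildtype (y axis), of the 4 called genes and of Idi1, Srebf1 and Scap (x axis) under the edgeR fit (diamond) and 15 alternatives: the effective-length offset (triangle), fragment length as a covariate (cross), fits leaving out 1 library (circles) and other tools, scalings, filters or units (squares). Tm7sf2, Mvd and Dhcr7 stay below 0 in all settings, while the covariate takes Cyp51 and Idi1 below 0 and Srebf1 and Scap above it.

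Markers of several testis cell types moved between the groups beside these genes. Of 11 Leydig cell markers 3 were called, all lower (Star, Hsd3b6 and Insl3), and their summed level was 933 to 1593 TPM in DKO and 1576 to 3245 TPM in Wildtype. Of 13 Sertoli cell markers 3 were called, all lower, with sums of 1378 to 1745 TPM against 1553 to 1966 TPM. Of 10 spermatocyte markers 2 were called, both higher, with sums of 4971 to 5290 TPM against 4772 to 4924 TPM. Of all tested genes, 5.75% were called higher and 5.1% lower. Each sum came mostly from 1 gene: Insl3 for Leydig, Clu for Sertoli and Ldhc for spermatocyte markers. Ldhc alone had 4204 ± 126 TPM in DKO and 4079 ± 64.9 TPM in Wildtype (SD, n = 3 each). Neither Clu nor Ldhc was called. In these bulk samples fewer cells of a type and less RNA per cell cannot be told apart, and the part of cell composition in the changes of the cholesterol genes was not tested. Counts called were 0 of 11 macrophage, 0 of 7 tested spermatogonia, 0 of 10 round spermatid, 2 of 10 elongating spermatid (1 higher and 1 lower), 0 of 8 myoid and endothelial, 0 of 6 adipose and 0 of 2 tested epididymis markers.

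Among related genes outside the list, Cyb5r3, which passes electrons to cytochrome b5, was at 35.6 ± 1.27 CPM against 46.6 ± 6.28 (SD, n = 3 each; log2 fold change -0.39, edgeR adjusted p = 0.0349).

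Among 13 further genes of SREBP processing and sterol-driven degradation 1 was called (against 10.8% of all tested genes). It was Tmem41b, a lipid scramblase of the endoplasmic reticulum, which was higher (log2 fold change 0.36, edgeR adjusted p = 0.0440). Of 25 tested genes of sterol uptake, carriage and LXR signalling 4 were called (against 10.8% of all tested genes). The 3 higher genes encode lipid or sterol carriers: Gramd1c at 0.41, Stard6, a START protein abundant in testis, at 0.32, and Osbpl8 at 0.40 on the log2 scale (edgeR adjusted p = 0.0353, 0.0381 and 0.0452). Nr1h2, the oxysterol receptor LXR beta, was lower, at 35.9, 44.1 and 44.96 CPM in DKO and 52.2, 54.8 and 53.6 CPM in Wildtype (log2 fold change -0.36; edgeR adjusted p = 0.0358). Of 9 listed oxysterol enzymes 4 were tested and 1 was called (against 10.8% of all tested genes). Cyp39a1, an oxysterol hydroxylase, had 7.64, 6.36 and 5.18 CPM in DKO and 3.79, 4.09 and 3.46 CPM in Wildtype, without overlap (log2 fold change 0.75, SE 0.155; by edgeR, adjusted p = 0.0269).

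The deposited length of a gene is the mean length of its transcripts weighted by their estimated abundance, so it can shift only where several are annotated, as for 8 of the 29. Scap had 4189, 4194 and 4191 bases in DKO and 4205, 4209 and 4215 bases in Wildtype, without overlap. Insig2 was also shorter in DKO without overlap (2695 ± 0.141 bases against 2697 ± 0.624; SD, n = 3 each), and Mvd was longer (1762 ± 0.986 against 1761 ± 0). These shifts were small next to the lengths themselves. Without overlap were 2 of the 8 shorter in DKO (25%, against 7.3% of 4805 tested genes with several transcripts) and 1 longer (12.5%, against 8.24%).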

How the data were processed

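Testes of 3 DKO and 3 Wildtype mice were compared, grouped by the genotype label. The submitters' processing notes name STAR 2.7.0f, RSEM 1.2.31, DESeq2 1.12.3 and mm10; strand handling and read filters are not given in the sources used here. Per the file headers, the authors deposited RSEM gene tables, 1 per library, with expected counts (estimated fragments per gene, 93.2% of them whole numbers) and TPM. The lengths they deposited gave each library's mean fragment length: effective length was subtracted from length, 1 was added, and the median was taken across genes above 3000 bases.

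The rounded counts were filtered by filterByExpr and scaled by TMM, and DKO was compared with Wildtype by the quasi-likelihood test of edgeR 4.0.16 (R 4.3.3) across all 17110 genes tested, with Benjamini-Hochberg adjustment and a threshold of 0.05. The SE of a log2 fold change is its size over the square root of F. CPM values use TMM-scaled library sizes. No preparation batch is given in the sources used here, and the sample descriptions share 1 flow cell code and lane. Alternatives were DESeq2 1.42.0 and its size factors, limma 3.58.1 (voom, and log2(TPM + 1) and log2(TPM + 0.1)), no filter, an effective-length offset, fragment length as a covariate, thinning to the smallest total, and leaving out each library. The test was checked on simulated counts.

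The 29 genes, the 6 lists of related genes and the 10 marker lists were chosen with earlier results of these data known. All members are described. Values per library are given for those called or without overlap with a log2 fold change of 0.3 or more in size, and for others chosen after their values were seen. The 5 members with the highest TPM are given with their group means and SDs. Of each related list the called genes with the smallest p, at most 4, are named. A result of the list of further sterol synthesis and electron donor genes, and the counts over that list, are not reported here. Positions and overlaps come from GENCODE M21 and promoters from RefSeq, both GRCm38. Overlaps were taken over the exons of all annotated transcripts of a gene, so shared bases may lie outside the transcripts counted. Overlap of genes on opposite strands leaves their counts uncertain, since strand handling is not given. Fdft1 and Ctsb, on opposite strands, both had fractional counts in all 6 libraries.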

Additional observations from a re-analysis of the deposited data

How the results depend on the processing

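Against 1 member called higher and 3 called lower, the counts were 2 and 5 with no filter (6.48% and 4.51% of all tested genes). With DESeq2 they were 3 and 6, beside 6.86% and 5.1% of all 24411 genes. Those 2 shares include genes without an adjusted p, so they understate the share of tested genes. At an adjusted p under 0.1 the counts were 4 and 7 (12.8% and 10.6% of all tested genes). They were 0 and 0 at an adjusted p under 0.01, where 0% and 0.0409% of all tested genes passed. On log2(TPM + 1) limma called 0 higher and 2 lower (1.63% and 2.67% of all tested genes), with Cyp51 at limma adjusted p = 0.0697. On log2(TPM + 0.1) it called 0 higher and 2 lower (2.16% and 3.37%), with Cyp51 at limma adjusted p = 0.0667. These fits called 735 and 947 of all tested genes, against 1856 in the main edgeR fit. With fragment length as a covariate edgeR called 0 and 0 members and 1 gene of all tested, with 1 member and 545 genes at an unadjusted p under 0.05, and the median over members was 0.0063. Leaving out 1 library gave 0 to 2 called higher, 0 to 8 called lower and a median of -0.14 to -0.0309. Those fits called 7 to 3029 of all tested genes. DESeq2 size factors, the effective-length offset, limma-voom and thinning kept both counts within 1.5 times.

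Directions of single genes turned 32 times over the 15 alternatives, 13 of them with fragment length as a covariate, the most of any 1 setting. Fold changes there went to -0.0564 for Hmgcs1, 0.17 for Mvk, 0.0063 for Pmvk, -0.15 for Idi1, -0.0329 for Fdps, 0.0608 for Lss, -0.0232 for Cyp51, 0.0584 for Ebp, 0.10 for Srebf1, 0.14 for Srebf2, 0.0777 for Scap, -0.11 for Stard4 and 0.0257 for Npc2 (log2). None of these 13 passed the threshold there; the cause was not tested. On log2(TPM + 1) and log2(TPM + 0.1) Insig2 turned to -0.0426 and -0.0435 and Npc1 to -0.0250 and -0.0332, and thinning turned Hsd17b7 to 0.0661. Fits leaving out 1 library spanned 0 for Fdps (-0.0343 to 0.0951), Insig2 (-0.0250 to 0.0427), Hsd17b7 (-0.0618 to 0.0558), Npc1 (-0.0376 to 0.13), Msmo1 (-0.30 to 0.0542), Sc5d (-0.16 to 0.0167) and Soat1 (-0.0028 to 0.10). Tm7sf2, Mvd and Dhcr7 were lower in DKO under all 15 alternatives. No paired analysis was possible because the replicate numbers follow accession order and no label ties a DKO to a Wildtype library. Tm7sf2 had the fewest counts of the called genes (76 to 148 a library). Of the 4, thinning moved Mvd most, from -0.58 to -0.47, and all 4 stayed called.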

Other observations

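Enzymes that use the isoprenoids of the mevalonate stage for other products gave 1 call among 17 tested genes (against 10.8% of all tested genes). Chml, a Rab escort protein that presents Rab proteins for prenylation, had 18.0, 15.8 and 12.8 CPM in DKO and 10.8, 10.1 and 11.3 CPM in Wildtype, without overlap between the groups (log2 fold change 0.53, SE 0.124; by edgeR, adjusted p = 0.0325). The median over these 17 genes was 0.05 on the log2 scale, and they ran from -0.24 to 0.53.

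Of 16 fatty acid genes under SREBP control 2 were called, both lower in DKO (against 5.1% of all tested genes), and the median log2 fold change was -0.12. They are the 2 desaturases that make long polyunsaturated fatty acids. Fads2 had 51.2, 53.0 and 46.3 CPM in DKO and 58.1, 79.9 and 70.4 CPM in Wildtype (log2 fold change -0.47; edgeR adjusted p = 0.0307). Fads1 had 41.9, 40.1 and 40.4 CPM in DKO and 43.5, 62.8 and 55.0 CPM in Wildtype (log2 fold change -0.40; edgeR adjusted p = 0.0447). In both genes Wildtype replicate 1 was the Wildtype library nearest DKO.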
